A study of Mus musculus with 5 samples.

Results

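The RNA polymerase subunits are the 28 genes of 48440 in the deposited table whose names begin with Polr1, Polr2 or Polr3 and which had at least 20 counts summed over the 5 libraries. All 28 also had enough counts to be among the 14460 genes tested. The lowest total inside the count minimum was that of Polr3g, with 1287 counts, and the only name outside it was the pseudogene Polr2k-ps, with 0 counts. Polr2k was singled out beforehand because it was lower in the knockout libraries in these same data, so its values are given as a description, without a p-value.

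The libraries came from CD4+CD25+ regulatory T cells (Tregs), which were freshly isolated from spleens of C57B/6 mice by means of magnetic beads. The KO group had 3 libraries from mice without KLF10 in CD4+ T cells (CD4-KLF10-KO in the labels), the wild-type (WT) group had 2, and all mice were on a high-fat diet. KLF10 is a Krüppel-like transcription factor induced by TGF-β. The labels give no age, sex, driver of the deletion or deleted stretch of the gene, and do not tie libraries to single animals. The p-values therefore reflect only how much these 5 libraries vary. Library codes begin with B in KO and with A in WT, and whatever the letter marks cannot be told apart from genotype.

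Transcription in the nucleus is divided among related enzymes. RNA polymerase I makes the precursor of most ribosomal RNA, RNA polymerase II makes messenger RNA and many noncoding RNAs, and RNA polymerase III makes transfer RNA, 5S ribosomal RNA and other short RNAs. Each is built around a pair of very large catalytic subunits, with a set of small subunits that all of the enzymes share, an assembly heterodimer, a stalk and, in polymerases I and III, further subunits that act in initiation. The shared subunits are Polr2e, Polr2f, Polr2h, Polr2k and Polr2l. POLR2K is the smallest of these proteins, binds zinc and sits in the assembly platform of each enzyme.

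Polr2k (ENSMUSG00000045996) is a protein-coding gene on the plus strand of chromosome 15, from 36174010 to 36177010 (GRCm38). GENCODE M21 gives it 2 transcripts of 4 exons each, and the shorter, of 489 bases, has a coding sequence of 58 codons and a stop codon. That coding sequence is shown with the pseudogene of the same name, because copies of this kind bear on how reads of Polr2k can be assigned. Capitals mark bases of the pseudogene that differ from the aligned base of Polr2k.
Polr2k: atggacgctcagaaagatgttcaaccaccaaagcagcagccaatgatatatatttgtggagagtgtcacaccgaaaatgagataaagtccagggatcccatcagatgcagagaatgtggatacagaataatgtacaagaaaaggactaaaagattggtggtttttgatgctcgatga
Polr2k-ps: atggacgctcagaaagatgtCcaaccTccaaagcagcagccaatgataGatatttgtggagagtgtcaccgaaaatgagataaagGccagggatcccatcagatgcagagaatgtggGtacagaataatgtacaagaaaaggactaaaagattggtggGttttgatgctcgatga
Over 177 aligned positions the pair had 169 identical bases, 6 mismatches and 2 positions missing from the pseudogene, or 95.5% identity. Polr2k-ps lies on chromosome 11, from 95761491 to 95761665 (GRCm38, plus strand), and is a processed pseudogene, a copy without introns.

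Polr2k transcripts in the KO libraries were at 0.254 of the WT level, and no other subunit came near that difference. Polr2k had 117, 122 and 146 counts in KO replicates 1, 2 and 3, against 527 and 506 counts in WT replicates 1 and 2. In scaled CPM (counts relative to library size, with TMM scaling factors) it was at 4.58, 4.64 and 4.78 in the KO libraries, against 17.4 and 19.4 in the WT libraries. The KO libraries lay close together and far below both WT libraries. The means were 4.67 ± 0.104 scaled CPM in KO (SD, n = 3) and 18.4 ± 1.44 scaled CPM in WT (SD, n = 2). The log2 fold change, KO over WT, was −1.98 (SE 0.11).

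The other 27 subunits had log2 fold changes between −0.21 and 0.09, with SEs from 0.06 to 0.13. Their median was −0.07, against −0.01 over all 14460 genes tested, and 22 of 27 were below 0, against 53.3% of all genes, while scaling by pan-T cell genes put 27 of 27 above 0 and the median of all genes at 0.24. The log2 change of Polr2k minus this median was −1.90. Of these 27, 0 were called at a false discovery rate of 0.05 by edgeR's quasi-likelihood test, where 0.284% of all genes tested were called (0.228% higher and 0.0553% lower in KO). DESeq2 also called 0 of them (and 7.07% of all genes, 1.45% as lower in KO). At an unadjusted edgeR p under 0.05, 1 of 27 was lower in KO, against 5.62% of all genes, and 0 were higher, against 10.7%.

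**Figure D1:**
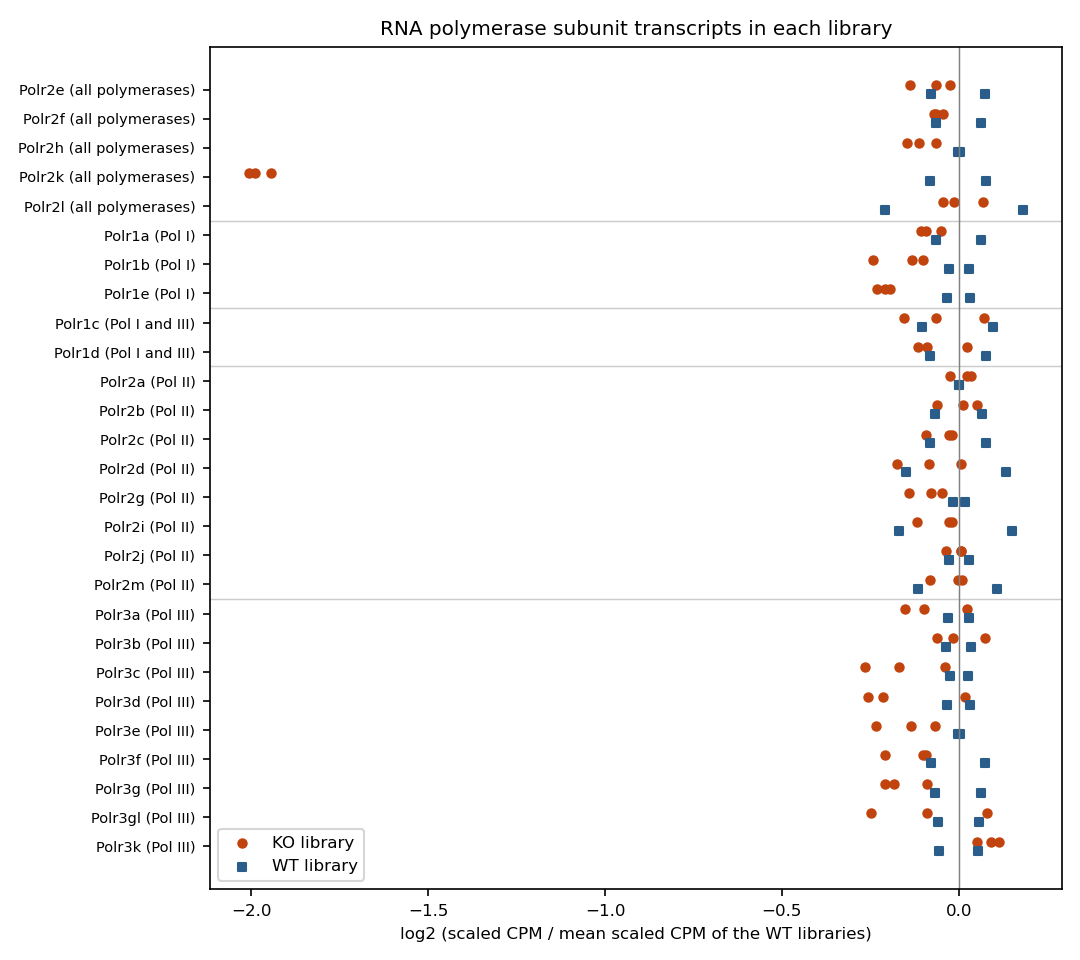
Each row is 1 of 27 subunits, grouped by the polymerase it belongs to, and the x axis is the log2 ratio of its scaled CPM in a library to the mean of the WT libraries (circles, KO; squares, WT). The KO circles of Polr2k lie near −2, while the circles of the other subunits lie close to the WT squares.

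**Figure D2:**
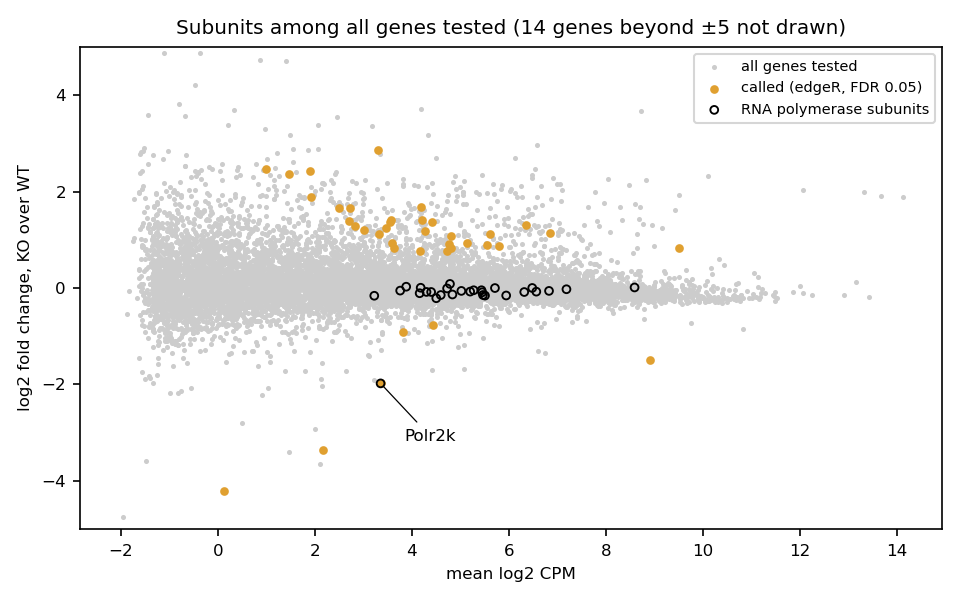
Log2 fold change, KO over WT, against mean log2 CPM for all genes tested, with called genes in orange and the subunits as open circles; 14 genes beyond 5 in either direction are not drawn. Polr2k, at −1.98, stands apart from the other subunits, which lie between −0.21 and 0.09. It was chosen for its fall in these data, so the orange at its point is not read as a test.

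The libraries also differed in their makeup. Total counts lay between 26122043 and 30521797 in KO and between 25622614 and 29598068 in WT. Klf10 itself had 408, 331 and 271 counts in KO, against 668 and 588 counts in WT (log2 change −0.84, SE 0.22, edgeR adjusted p = 0.136, DESeq2 adjusted p = 0.0195). Of 11 measured erythroid markers, all 11 were higher in every KO library than in either WT library, where 17.6% of all genes tested were. Their summed levels were 55856 to 92041 scaled CPM in KO and 14703 to 20662 in WT. All 12 macrophage and myeloid markers were likewise higher in every KO library (sums of 1117 to 1412 scaled CPM in KO and 473 to 653 in WT). In 10 of 14 pan-T cell genes the KO values were all under the WT values, where 17.4% of all genes tested were so. The 14 genes had a median log2 change of −0.30 and summed levels of 3217 to 3343 scaled CPM in KO and 3627 to 4247 in WT. The 8 Treg markers, Foxp3 among them, were all measured, with summed levels of 1768 to 1805 scaled CPM in KO and 1784 to 2193 in WT. Single markers differed in direction. In 2 of 8, Il2ra and Lrrc32, the KO values were all under the WT values (log2 changes −0.42 and −0.57). In 1 of 8, Tigit, they were all above (0.49). DESeq2 called 2 of 8 as lower and 1 as higher, where 1.45% and 5.62% of all genes were, and edgeR called 0. In 0 of 8 B cell markers were the groups apart, against 17.4% of all genes with KO lower and 17.6% with KO higher. The sums of these 8 markers were 2849 to 3018 scaled CPM in KO and 2383 to 3485 in WT. In such bulk preparations fewer cells of a type and less RNA per cell cannot be told apart, and the part of this shift in the small differences between subunits was not tested. The number of genes called over the whole table, 41, moved with single libraries (45 without WT replicate 1, 3 without WT replicate 2, 334, 1 and 11 without KO replicates 1, 2 and 3).

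Among the subunits common to all 3 polymerases, Polr2k alone was far from its WT level. Polr2e, which encodes the shared subunit RPABC1, was at 88.8, 93.4 and 95.9 scaled CPM in KO and at 92.5 and 102.8 scaled CPM in WT, and the groups overlapped (log2 change −0.07, SE 0.07, edgeR adjusted p = 0.672). Polr2f, for RPABC2, was at 31.8, 31.6 and 32.2 scaled CPM in KO and at 31.8 and 34.7 scaled CPM in WT (−0.06, SE 0.07, edgeR adjusted p = 0.745). Both lay in nearly the same range in the KO and the WT libraries.

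Polr2h, for RPABC3, was at 16.8, 17.8 and 17.2 scaled CPM in KO, a little below the 18.6 and 18.7 scaled CPM in WT (log2 change −0.11, SE 0.08, edgeR adjusted p = 0.581). Polr2l, for RPABC5, which like POLR2K binds zinc, was at 17.5, 18.9 and 17.9 scaled CPM in KO, between the 15.6 and 20.5 scaled CPM of the WT libraries (0.0061, SE 0.13, edgeR adjusted p = 0.988). In WT, Polr2k, Polr2h and Polr2l thus had similar scaled CPM, whereas in KO Polr2k was the lowest of the shared subunits in all 3 libraries. Scaled CPM does not account for transcript length. In the deposited TPM values, which do, the WT means were 74.96 for Polr2k, 32.7 for Polr2h and 27.8 for Polr2l.

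**Figure D3:**
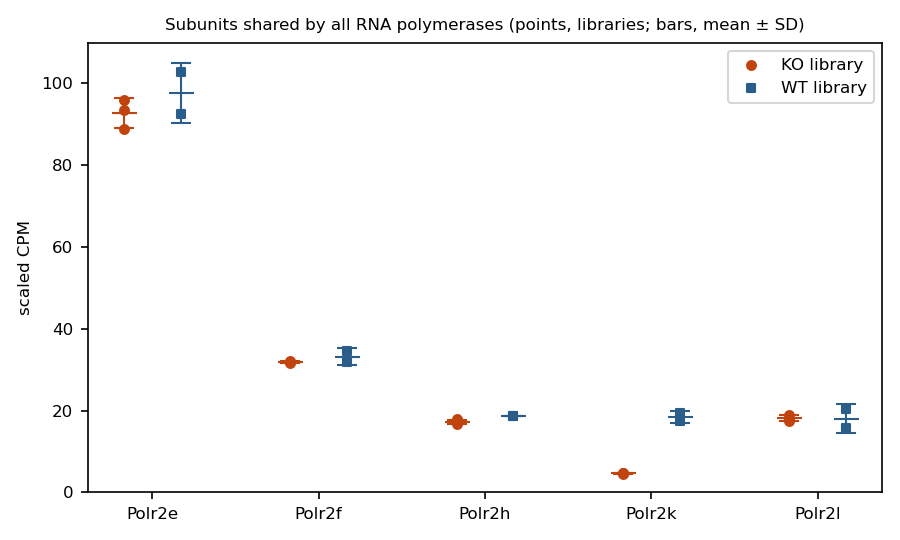
Scaled CPM of the shared subunits in each library (circles, KO; squares, WT), with bars for the mean ± SD. Polr2k is at 4.67 ± 0.104 in KO and 18.4 ± 1.44 in WT, while for Polr2e, Polr2f and Polr2l the KO and WT libraries overlap and for Polr2h they lie close together.

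Levels were compared between subunits with the deposited TPM values, which account for transcript length. Polr2k was at 15.3, 17.3 and 17.8 TPM in KO, against 72.1 and 77.9 TPM in WT. It stood 21st to 23rd of the 28 subunits in the KO libraries and 7th in both WT libraries. Among the shared subunits it made up 6.04 ± 0.0642% of the summed TPM in KO (SD, n = 3) and 19.5 ± 0.117% in WT (SD, n = 2). Polr2f, the most abundant of them, made up 47.4 ± 0.734% in KO and 40.5 ± 0.434% in WT. These shares are parts of a fixed total, so a lower share of Polr2k by itself raises the shares of the others.

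The order of the other subunits was led in both groups by genes of polymerase II and by the shared Polr2f. Polr2f (132 ± 8.42 TPM in KO and 155 ± 5.89 TPM in WT), Polr2m (134 ± 12.6 in KO and 154 ± 13.2 in WT), Polr2a (123.05 ± 6.11 in KO and 138 ± 3.22 in WT) and Polr2g (110.3 ± 7.28 in KO and 133 ± 1.02 in WT) were the highest. Polr2a was below Polr2f and Polr2m in each of the 3 KO libraries, while Polr2f and Polr2m changed places between them. Polr2k in WT (74.96 ± 4.09 TPM) came between Polr2e (93.0 ± 4.75) and Polr2c (63.4 ± 3.34). In KO (16.8 ± 1.31 TPM) it lay among Polr3a (17.3 ± 1.96), Polr1b (16.9 ± 1.85) and Polr1a (14.7 ± 1.01). It was above Polr1a in each of the 3 KO libraries, and its order relative to Polr3a and Polr1b changed between them. The lowest levels were those of Polr3g, at 5.07 ± 0.444 TPM in KO and 6.404 ± 0.258 TPM in WT.

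**Figure D4:**
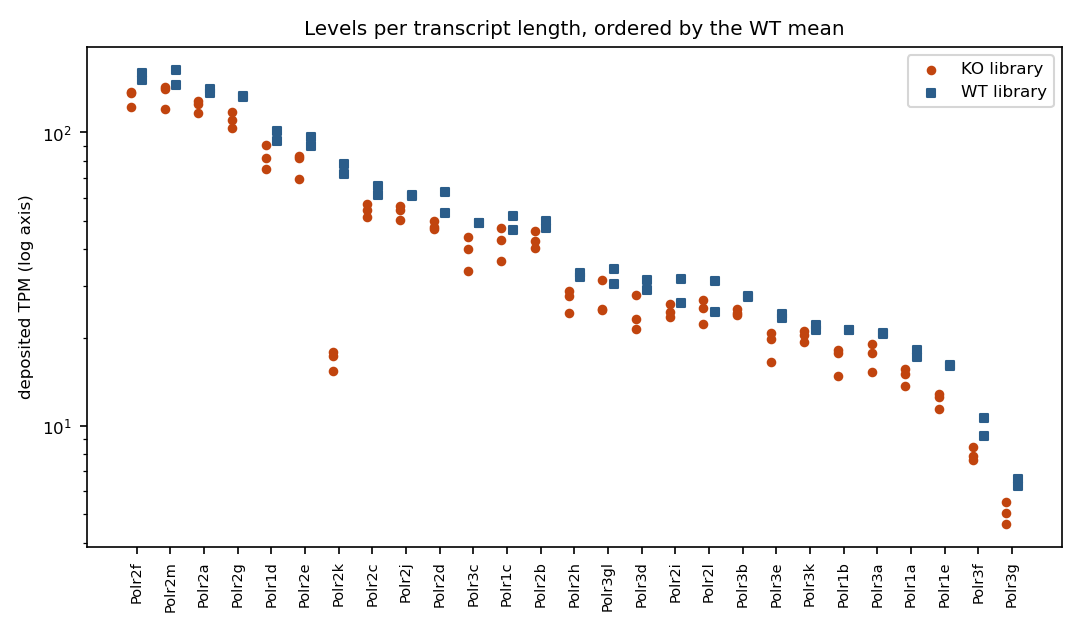
Deposited TPM of 27 subunits in each library on a log axis, ordered by the WT mean (circles, KO; squares, WT). Polr2k is 7th in WT at 74.96 TPM and lies among the low-level subunits in KO at 16.8 TPM, and most other subunits are slightly lower in KO on this scale.

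On the TPM scale all 27 other subunits had a lower mean in KO, and in 24 of 27 the KO values were all under the WT values, where 46.3% of all genes tested were so; in 0 of 27 they were all above, where 9.54% were. Their median log2 ratio of group means was −0.25 in TPM, against −0.19 over all genes tested. Haemoglobin genes took 5.32% to 8.25% of counts in KO and 1.42% to 2.03% in WT, and TPM values of a library sum to a fixed total. These are shares of counts and not of TPM. In TPM the haemoglobin gene Hbb-bs alone had a mean of 72836 in KO and 22473 in WT. The part of haemoglobin in the lower TPM of the subunits was not tested. In scaled CPM the KO libraries lay below both WT libraries in 8 of the 27 other subunits, where 17.4% of all genes did so, and above both in 0, where 17.6% did. These 8 were Polr1b, Polr1e, Polr2g, Polr2h, Polr3c, Polr3e, Polr3f and Polr3g. Summed over the 27, scaled CPM was 1515 to 1544 in KO and 1531 to 1629 in WT, and these ranges overlap.

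The catalytic subunits, which form the active site in pairs, differed little between the groups. Polr2a, the largest subunit of polymerase II, whose C-terminal repeats are phosphorylated during transcription, was at 393, 377 and 390 scaled CPM in KO, around the 384 and 384 scaled CPM in WT (log2 change 0.01, SE 0.06, edgeR adjusted p = 0.942). Its partner Polr2b was at 90.03, 92.5 and 85.6 scaled CPM in KO and at 85.2 and 93.4 scaled CPM in WT (0.0015, SE 0.07, edgeR adjusted p = 0.994). In both genes the KO and WT libraries overlapped.

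For polymerase I, Polr1a, the largest subunit, was at 77.4, 76.6 and 79.6 scaled CPM in KO and at 78.8 and 86.1 scaled CPM in WT (log2 change −0.08, SE 0.06, edgeR adjusted p = 0.588). Its partner Polr1b was at 40.9, 44.2 and 45.2 scaled CPM in KO, below the 47.5 and 49.4 scaled CPM in WT (−0.16, SE 0.07, edgeR adjusted p = 0.337). The groups overlapped for Polr1a and not for Polr1b, and neither gene was called.

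For polymerase III, Polr3a, the largest subunit, was at 34.1, 35.4 and 38.5 scaled CPM in KO and at 37.1 and 38.7 scaled CPM in WT (log2 change −0.07, SE 0.08, edgeR adjusted p = 0.700). Its partner Polr3b was at 55.2, 51.8 and 50.2 scaled CPM in KO and at 51.1 and 53.7 scaled CPM in WT (−2.2e-05, SE 0.07, edgeR adjusted p = 0.9999). Within a library, Polr2a had 8.35 ± 0.166 times the TPM of Polr1a in KO and 7.83 ± 0.486 times in WT. By library this ratio was 8.54, 8.28 and 8.23 in KO and 8.18 and 7.49 in WT, so that every KO library was above both WT libraries, the nearest by a small margin. Against Polr3a the ratio was 7.14 ± 0.469 in KO and 6.71 ± 0.195 in WT, and the groups overlapped.

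Polr1e had the largest log2 change after Polr2k, though other subunits exceeded it in size with pan-T cell scaling, with a replicate block, and without KO replicate 2, KO replicate 3 or WT replicate 2. Polr1e encodes PAF53, which with CD3EAP forms a heterodimer of polymerase I that resembles the initiation factor TFIIF. It had 545, 552 and 657 counts in KO, against 730 and 656 counts in WT. In scaled CPM it was at 21.3, 20.98 and 21.5 in KO and at 24.1 and 25.2 in WT, with no overlap (log2 change −0.21, SE 0.08). The difference missed the threshold (edgeR adjusted p = 0.241, unadjusted p = 0.0298), and DESeq2 gave an adjusted p of 0.350. The 3 polymerase I subunits had a median log2 change of −0.16, but with the libraries scaled to the pan-T cell genes every one of the 27 other subunits, these 3 included, was above 0, Polr1e least of all at 0.036 and Polr3k most at 0.33. Polr1c and Polr1d, the assembly heterodimer of polymerases I and III, had log2 changes of −0.05 and −0.06 (edgeR adjusted p = 0.864 and 0.763).

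The remaining polymerase II subunits had log2 changes between −0.09 and −0.0079. Polr2c and Polr2j, the assembly heterodimer of polymerase II, had log2 changes of −0.05 (SE 0.07) and −0.0079 (SE 0.07). Those of Polr2d and Polr2g, which form the stalk of this enzyme, were −0.08 (SE 0.11) and −0.09 (SE 0.06). Polr2i, a zinc-binding subunit with a role in start site selection and fidelity in yeast, had −0.05 (SE 0.12). Polr2m, which encodes GDOWN1, a protein that associates with polymerase II rather than a core subunit, had −0.02 (SE 0.08). The median of the 8 polymerase II genes was −0.04, and their smallest edgeR adjusted p was 0.545.

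The 10 polymerase III subunits had a median log2 change of −0.11, and 8 of 10 were below 0, but none with pan-T cell scaling. Polr3c, Polr3f and Polr3g form a subcomplex that acts in initiation. Polr3g, next after Polr1e in the size of its difference, was at 8.73, 9.31 and 8.58 scaled CPM in KO and at 9.47 and 10.4 scaled CPM in WT (log2 change −0.16, SE 0.12, edgeR adjusted p = 0.556). Polr3c had −0.15 (SE 0.08, edgeR adjusted p = 0.409) and Polr3f −0.13 (SE 0.08, edgeR adjusted p = 0.495).

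Polr3gl encodes a form of the same subunit as Polr3g, and the enzyme holds one or the other. In these preparations Polr3gl was the more abundant, at 5.33 ± 0.386 times the TPM of Polr3g in KO and 5.07 ± 0.613 times in WT, and this ratio overlapped between the groups (4.92 to 5.68 in KO and 4.64 to 5.50 in WT). Polr3gl itself was not called (log2 change −0.08, SE 0.12, edgeR adjusted p = 0.789). Polr3d and Polr3e, a further TFIIF-like pair, had log2 changes of −0.14 each (SE 0.11 and 0.07, edgeR adjusted p = 0.559 and 0.390). Polr3k, which takes part in cleavage of the transcript and in termination, had the highest log2 change of all subunits, at 28.8, 28.3 and 27.5 scaled CPM in KO and 25.5 and 27.6 scaled CPM in WT (0.09, SE 0.08, edgeR adjusted p = 0.641).

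Polr2k lies on the same chromosome as the deleted gene, 2.12 Mb from Klf10. Polr2f, also on chromosome 15, lies 40.8 Mb from Klf10 and had a log2 change of −0.06. Spag1, the next gene downstream of Polr2k, 2358 bases away on the same strand, had 107, 94 and 119 counts in KO and 132 and 92 counts in WT (log2 change −0.02, SE 0.18, edgeR adjusted p = 0.967). Rnf19a, 62924 bases away, was also not called (log2 change 0.19, SE 0.09, edgeR adjusted p = 0.378), and Fbxo43, 9126 bases upstream, had 1 count over the 3 KO libraries and 1 over the 2 WT libraries. Over a wider window, calls were more frequent than in the whole table. With Polr2k left out, edgeR called 4 of 43 genes tested within 10 Mb of Klf10 (9.30%), where 0.284% of all genes were called. Of these 4, Ncald was higher in KO and Rpl30, Matn2 and Sema5a were lower, with log2 changes of 2.47, −1.50, −0.92 and −4.22. Rpl30, for a protein of the large ribosomal subunit, had 6858, 7590 and 8561 counts in KO, against 23834 and 20540 counts in WT, and as ribosomal protein genes have many pseudogenes its assigned counts are uncertain. Sema5a, for a semaphorin, had 4, 3 and 3 counts in KO, against 70 and 62 counts in WT. Its KO counts were near the floor, so it passed the count filter only through the WT libraries. The call of Sema5a, which the 4 of 43 includes, and the size of its change are uncertain to that extent. In both genes all KO libraries lay far below both WT libraries. The 9.30% rests on the 41 edgeR calls over all genes, a number that ranged from 1 to 334 with each library left out. The share within this window was not recomputed in those settings. Genotype at Klf10 and whatever else differs between the groups on this stretch of chromosome 15 cannot be told apart here.

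Polr2k was also the subunit with the most near-identical copies in the annotation. Coding sequences of all 28 subunits were compared with GENCODE M21 transcripts, and copies in other genes with at least 90% identity over at least 100 bases and 50% of the coding sequence were found for 5 of them. Polr2k had 8 such copies, with 90.4% to 100% identity, Polr2l had 3, Polr2c had 2, and Polr1d and Polr2h had 1 each. Of the 8 copies of Polr2k, 4 are in the deposited table (Polr2k-ps, Gm14567, Gm20305 and Gm29815), and all 4 had 0 counts in every KO and WT library. The other 4 are not in that table, so no counts could be read for them, and the same held for 1 copy of Polr2c and 1 of Polr2h. Among the copies in the table, the only one with counts belonged to Polr2l, as a transcript of Usp50. That gene had 216, 281 and 218 counts in KO and 209 and 245 counts in WT. The labels do not say how reads with several matches were treated, so the counts of Polr2k and of its copies are uncertain to that extent, and the part of such reads in the difference was not tested.

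Genes that work with the polymerases showed no difference like that of Polr2k. Subunits that carry other names in the table are Znrd1, Twistnb and Cd3eap of polymerase I and Crcp of polymerase III. Listed with them was Polrmt, the polymerase of mitochondria, which is a separate enzyme and not a subunit of polymerases I to III. All 5 had log2 changes below 0, from −0.16 for Twistnb (26.7 ± 1.28 scaled CPM in KO and 29.8 ± 2.86 in WT) to −0.04 for Crcp, although their median of −0.12 became 0.13 with pan-T cell scaling, and edgeR and DESeq2 each called 0 of them, with 0 under an unadjusted p of 0.05. At that unadjusted edgeR p, 10.7% of all genes tested were higher and 5.62% lower in KO, which is the background for each list here. Of 9 polymerase I factors, 0 were called by either tool and 0 had an unadjusted p under 0.05 (median −0.04). The extremes were Taf1a, of the promoter selectivity factor SL1, at −0.27 (SE 0.11, edgeR adjusted p = 0.313), and Tbp, the TATA-binding protein used by all of the polymerases, at 0.07 (SE 0.07, edgeR adjusted p = 0.665).

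Of 31 polymerase II initiation factors (median −0.04), 0 were called by edgeR. At an unadjusted edgeR p under 0.05, 2 were higher and 1 lower in KO, against 10.7% and 5.62% of all genes. DESeq2 called 2 as higher, where 5.62% of all genes were. Taf9, a subunit of TFIID and SAGA complexes, was at 4.58, 5.89 and 4.35 scaled CPM in KO, above the 2.87 and 2.53 scaled CPM in WT (log2 change 0.87, SE 0.21, edgeR adjusted p = 0.114, DESeq2 adjusted p = 0.0210). Taf9 lies within the span of Ak6 on the same strand, so reads of these genes may not be separable. The other was Gtf2e2, of TFIIE (0.35, SE 0.09, edgeR adjusted p = 0.115, DESeq2 adjusted p = 0.0434). The lowest was Mnat1, of the kinase module of TFIIH (−0.22, SE 0.09, edgeR adjusted p = 0.322).

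The 27 elongation factors ranged from −0.11 for Paf1, of the PAF1 complex, to 0.28 for Ell2, of the super elongation complex, with a median of −0.03. Neither edgeR nor DESeq2 called any (0 of 27), and 0 had an unadjusted p under 0.05. The 18 polymerase III factors had a median of −0.04 with 0 called by either tool. At an unadjusted edgeR p under 0.05, 1 of 18 was lower in KO, where 5.62% of all genes were. This was Gtf3c6, of TFIIIC, at 17.1 ± 0.221 scaled CPM in KO and 20.5 ± 0.216 scaled CPM in WT (−0.27, SE 0.08, edgeR adjusted p = 0.170), and Brf2, of the TFIIIB form used at gene-external promoters, was highest at 0.07. The 14 factors of polymerase assembly, such as the GPN GTPases and prefoldin-like proteins, ranged from −0.16 for Pfdn6 to 0.18 for Uxt (median −0.06), and again 0 passed with edgeR or DESeq2, adjusted or, with edgeR, unadjusted. Of the short transcripts made by polymerase III, 9 were listed in the table, Rn7sk, Rmrp and Rpph1 among them, and each had 0 counts in all 5 libraries, so the output of this enzyme could not be read from these counts.

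**Figure D5:**
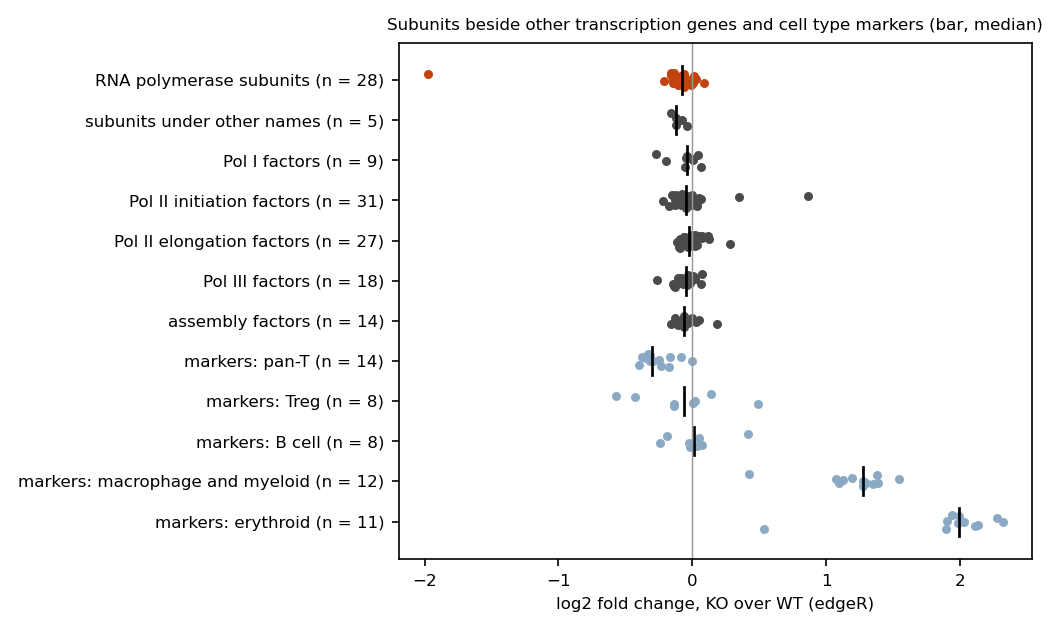
Log2 fold changes, KO over WT, of the subunits (top row), of lists of other transcription genes and of cell type markers, 1 point per gene with a bar at the median. Apart from Polr2k at −1.98 and Taf9 at 0.87, the transcription genes lie near 0, while the erythroid and macrophage markers lie to the right and most pan-T cell genes to the left.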

How the data were processed

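The authors deposited 1 table with whole-number total counts per gene, RPKM and TPM for each library, and a column headed CPM whose sums go against that unit, read here as a score and not used. Trimmomatic 0.36, STAR 2.5.2b and GRCm38 are named in the submitters' processing notes. The counting tool, annotation and strand setting were not given in the sources. Groups came from the titles, and every library column was matched.

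In R 4.3.3, edgeR 4.0.16 was run on the counts with filterByExpr, TMM factors and the quasi-likelihood test of genotype, with Benjamini-Hochberg adjustment over all 14460 genes kept. An SE is the absolute log2 change over the root of F. Alternatives were DESeq2 1.42.0, its size factors, no filter or a stricter one (mean of 50 counts), a replicate block, each library left out, scaling to pan-T cell genes, and abundant gene classes left out. Copies were searched with BLAST 2.17.0. The fit was tested on simulated data. Within groups, no pair of libraries agreed within counting noise (chi-square over its degrees of freedom, 16.5 to 39.1). The biological coefficient of variation was 13.1%.

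The members and lists were chosen with earlier results of these data known. Named were Klf10, the members (1 of the 28 is counted but not reported here), and from each list the called genes or else the largest change each way. Gtf2e2, the genes near Polr2k or Klf10 and the copies were named after their values were seen.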

Additional observations from a re-analysis of the deposited data

How the results depend on the processing

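In every setting run on the counts, 0 of the other 27 subunits were called by edgeR or DESeq2, and Polr2k was the lowest of the 28 in KO over WT. Polr2k was chosen for its fall in these same libraries, so its rank is a description and not a test. Its log2 change was −1.74 with pan-T cell scaling and −2.16 from the deposited TPM means, against −1.98, and lay between −2.06 and −1.90 with each library left out. The median of the other subunits was 0.17 with pan-T cell scaling, which raised the median of all genes to 0.24, −0.25 from TPM means, and between −0.12 and 0.0031 with each library left out. It was highest without WT replicate 2, when 15 of the 27 were above 0. Polr2k minus that median was −1.96 with a replicate block and between −1.96 and −1.89 with each library left out. TPM and RPKM for the median and the difference were chosen after the data were seen. The count over all genes, 41, was 589 without a filter, 23 with the stricter filter, 1022 by DESeq2, 1082 with pan-T cell scaling, 118 without the most abundant gene classes (antigen receptors, haemoglobins, mitochondrial genes and rRNA), and from 1 to 334 with each library left out. The causes were not tested. Same-numbered libraries had correlations of −0.00014 and 0.0625 in their deviations from the group means. The deviations of the 2 WT libraries are exact opposites, so these values cannot show whether the replicate numbers pair libraries. With the replicate block 32 genes were called. With these 5 libraries the SEs of 0.06 to 0.13 set which small changes of a subunit could be seen.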
